A study of Oryza sativa Indica Group with 18 samples.

Results

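LOC4339222 is a rice gene on chromosome 5 that the RefSeq annotation names peroxidase, with the synonym PRX74. Of the 57381 probe sets on the array, 1 is annotated to this gene and to no other, and its values are those given here. It was 1 of the 17905 genes that have such a probe set, and it was chosen by the difference between its drought responses in the rice cultivars Dagad deshi and IR20. For this reason its levels, its drought responses and its change between 3 h and 6 h, which is part of the same values, are given here as a description with no test. The working name of the gene in this choice was a peroxidase with opposite responses in the cultivars. The values did not bear that name out, since the mean level was lower under drought than in the control in both cultivars.

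The measurements came from 18 Affymetrix rice arrays, 3 for each of 6 groups. The plants were whole seedlings of Dagad deshi and IR20, both of the indica group, raised in hydroponic culture to an age of 7 days. Drought was imposed by leaving the seedlings on dry filter sheets for 3 h or 6 h, and the control seedlings of each cultivar spent 6 h in the growth solution at the same temperature. The labels call the 3 arrays of a group biological replicates without saying whether they came from separate cultures, so that the p-values measure only the spread between these samples, which may be technical. No transgene or mutation is named for either cultivar, and the only genetic difference between the groups is the cultivar. A 3 h control was not among the groups, and the 3 h and 6 h responses of a cultivar share the same control arrays.

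Plant peroxidases are haem enzymes that use hydrogen peroxide to oxidise a second molecule. Those of class III are secreted to the cell wall or the vacuole and form large families in grasses. In the wall they couple monolignols into lignin and cross-link wall proteins and phenolics, and they can also release reactive oxygen species. The hydrogen peroxide they use comes in part from NADPH oxidases of the plasma membrane and from superoxide dismutases, and the monolignols come from the phenylpropanoid pathway. Whether the product of LOC4339222 has any of these particular roles is not stated in the annotation used here.

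In control seedlings LOC4339222 was among the strongest signals of the arrays. The deposited intensities, on a linear scale, were 5032, 4158 and 4301 in Dagad deshi controls, and those of IR20 controls were 4265, 3798 and 4562. The ranges of the cultivars overlapped, and the group means lay at percentiles 97.4 and 96.9 of all probe sets. With 16 added to each intensity before taking the log2, the mean was 12.13 ± 0.146 in Dagad deshi and 12.04 ± 0.133 in IR20 (SD, n = 3 each). IR20 minus Dagad deshi was -0.09 on this log2 scale (SE 0.0819, 95% interval -0.27 to 0.08). In this comparison 53.1% of all probe sets tested passed the threshold of 0.05 for the adjusted p.

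In Dagad deshi the intensity of LOC4339222 under drought was a small share of its control level. It was 195, 181 and 169 in the 3 arrays at 3 h and 89.1, 104 and 91.9 in the 3 arrays at 6 h. Every drought array lay far below every control array, and the 6 h arrays lay below the 3 h arrays. The mean intensity was 4497 in controls, 182 at 3 h, a 24.8-fold difference, and 94.9 at 6 h, a 47.4-fold difference. This left 4.04% of the control intensity at 3 h and 2.11% at 6 h. On the log2 scale the mean was 7.62 ± 0.0946 at 3 h and 6.79 ± 0.0986 at 6 h (SD, n = 3 each). The changes from the control were -4.51 at 3 h (SE 0.0819, 95% interval -4.69 to -4.34) and -5.34 at 6 h (SE 0.0819, 95% interval -5.52 to -5.17). The remaining signal was still at percentiles 74.3 and 69.3 of the arrays, well above the lower end of the scale at a log2 value of 4. Of the 40094 probe sets tested, 63 had a more negative change in Dagad deshi at 3 h and 30 at 6 h. These are comparisons in which 70.9% and 70.4% of all probe sets passed the threshold.

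In IR20 most of the signal of LOC4339222 was still there under drought. The intensities were 3202, 3050 and 2978 at 3 h and 3339, 3291 and 3204 at 6 h. All 6 drought arrays lay below the lowest control array at 3798, so the groups did not overlap, but the distance was small beside that in Dagad deshi. The mean intensity was 73.1% of the control at 3 h and 77.9% at 6 h. The log2 means were 11.59 ± 0.0530 and 11.69 ± 0.0300 (SD, n = 3 each), and the changes from the control were -0.45 at 3 h and -0.36 at 6 h (SE 0.0819 each). In these comparisons 36.8% and 45.9% of all probe sets passed the threshold. In IR20 7185 probe sets had a more negative change at 3 h and 9874 at 6 h.

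**Figure D1:**
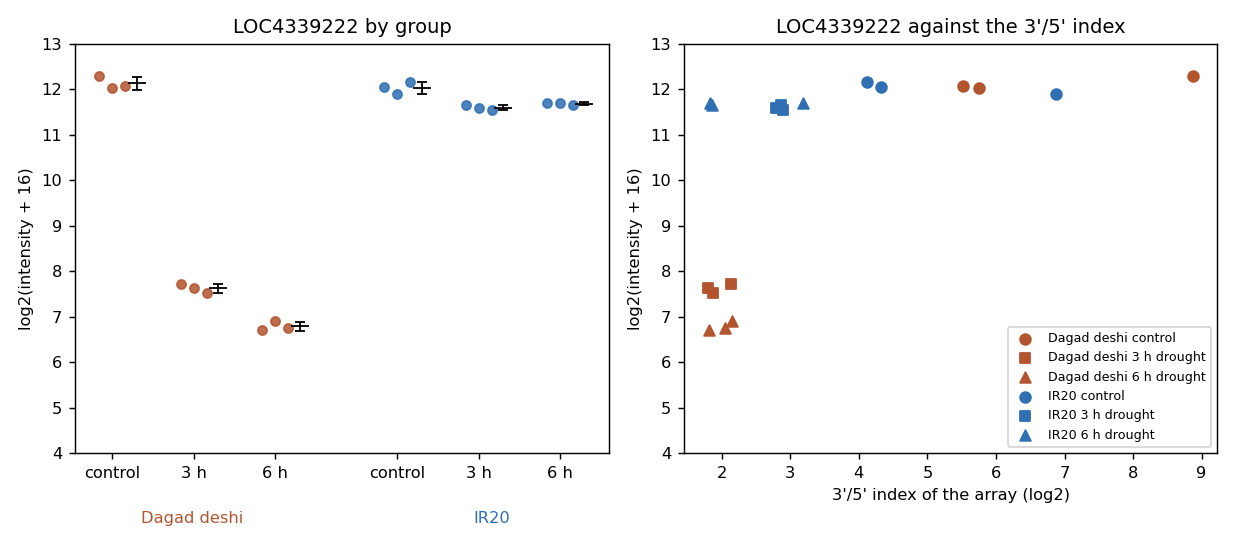
Level of LOC4339222 as log2(intensity + 16) on the vertical axis. The left panel shows the 3 arrays of each of the 6 groups with the mean ± SD beside them, and the right panel shows the same 18 arrays against the 3'/5' index of the array (log2 ratio). The 6 control arrays and the 6 IR20 drought arrays sit between 11.55 and 12.30, and the 6 Dagad deshi drought arrays sit below 8. Dagad deshi drought arrays have an index of 1.80 to 2.15, below that of all 3 IR20 arrays at 3 h (2.79 to 2.89) and of 1 IR20 array at 6 h (3.19).

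Under drought, then, the cultivars that had similar levels in solution stood far apart. The mean intensity in IR20 was 16.9-fold that of Dagad deshi at 3 h and 34.6-fold at 6 h, against 0.936-fold in the controls. On the log2 scale IR20 minus Dagad deshi was 3.97 at 3 h and 4.90 at 6 h (SE 0.0819 each), where 34.2% and 22.1% of all probe sets passed the threshold. The response in IR20 minus the response in Dagad deshi was 4.06 at 3 h (SE 0.116, 95% interval 3.82 to 4.31) and 4.99 at 6 h (SE 0.116, 95% interval 4.74 to 5.24). Of the 40094 probe sets, 10 had a higher value of this difference at 3 h and 2 at 6 h. The share of all probe sets past the threshold was 48.2% at 3 h and 43.0% at 6 h. From the highest to the lowest, the group means ran in the order Dagad deshi control, IR20 control, IR20 at 6 h, IR20 at 3 h, Dagad deshi at 3 h and Dagad deshi at 6 h. Among neighbours in this order only the control groups overlapped in their arrays.

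The course between 3 h and 6 h is given as a description too, since the responses that chose the gene contain it. In Dagad deshi 6 h minus 3 h was -0.83 on the log2 scale (SE 0.0819, 95% interval -1.01 to -0.66). The mean intensity was 1.91-fold higher at 3 h than at 6 h, and every 6 h array was below every 3 h array. In this comparison 11.5% of all probe sets passed the threshold, and 6.16% of all probe sets passed in the lower direction. In IR20 the difference was 0.09 (SE 0.0819, 95% interval -0.08 to 0.27), and the 6 h arrays lay narrowly above the 3 h arrays. For IR20 25.5% of all probe sets passed between 3 h and 6 h.

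A measure of RNA quality moved with drought in these arrays and stands beside these values. The 3'/5' index compares, for the actin, GAPDH and cyclophilin controls, probe sets at the 3' end with those at the 5' end as a mean log2 ratio, and broken RNA or incomplete labelling raises it. Control arrays had an index of 5.91 ± 1.77 (SD, n = 6) with a range of 4.12 to 8.88, and drought arrays one of 2.27 ± 0.513 (SD, n = 12) with a range of 1.80 to 3.19. In both cultivars the lowest control was above the highest drought array. Under drought the index was 1.80 to 2.15 in Dagad deshi, and in IR20 it was 2.79 to 2.89 at 3 h and 1.82 to 3.19 at 6 h, so at 3 h the cultivars did not overlap. When the index was added to the fit, LOC4339222 changed by -4.43 at 3 h and -5.26 at 6 h for Dagad deshi, and for IR20 by -0.41 and -0.30. The differences between the responses were then 4.02 at 3 h and 4.96 at 6 h. Without the Dagad deshi control of index 8.88 and the IR20 control of index 6.88, which are the highest of each cultivar, the differences between the responses were 3.91 and 4.83. Because the index did not overlap between control and drought arrays, these fits cannot tell RNA quality and drought apart. The part of RNA quality in the response of LOC4339222 was not tested.

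Since RNA came from whole seedlings, fewer cells of a type and less RNA per cell cannot be told apart, and markers of shoot and root were examined. Of the 3 shoot marker genes, which encode the small subunit of Rubisco and a chlorophyll-binding protein, the summed intensity was 76924 to 79964 in Dagad deshi controls, 66505 to 69915 at 3 h and 40348 to 45099 at 6 h. In IR20 the shoot sum was 65661 to 76879 in controls, 64835 to 68122 at 3 h and 52386 to 63006 at 6 h. Both shoot sums were thus lowest at 6 h, and the signal of 2 of the 3 genes, CAB2R and LOC4351966, was strong in every group. RBCS1 was dim, with mean log2 levels of 4.61 to 4.81. The 7 root marker genes, mostly transporters of silicon, nitrate and iron, summed to 3289 to 3702 in Dagad deshi controls, 3608 to 4301 at 3 h and 3763 to 4211 at 6 h. In IR20 the root sum was 6480 to 9394 in controls, 9902 to 10279 at 3 h and 12548 to 15049 at 6 h. No root marker was at 0 in any group, 2 of the 7 had a mean below the array median in Dagad deshi controls, and in every group the sum of IR20 exceeded that of Dagad deshi. In the controls 2 of the 7 were higher in IR20 and 5 were not called, where 53.1% of all probe sets passed. The 2 were the silicon transporter genes Lsi1 and Lsi2 (by 1.26 and 1.37), which had the highest levels of the 7 in every group. Under drought 5 were higher in IR20 at 3 h and 6 at 6 h, where 34.2% and 22.1% passed in either direction. Of the 7 root markers, 2 rose and 2 fell in Dagad deshi at 6 h, against 24.7% and 45.7% of all probe sets, and 6 rose in IR20, against 20.4%. OsCASP1 (LOC4337453), chosen after its values were seen, which helps to build the Casparian strip of the root, had mean log2 levels of 7.97 ± 0.389, 5.16 ± 0.0622 and 5.15 ± 0.0809 in Dagad deshi at control, 3 h and 6 h (SD, n = 3 each). In IR20 its levels were 8.10 ± 0.180, 8.03 ± 0.105 and 8.65 ± 0.145 (SD, n = 3 each). In Dagad deshi OsCASP1 therefore fell by 2.82 at both times (limma adjusted p = 1.05e-09 and 9.33e-10), while in IR20 its changes were -0.07 (limma adjusted p = 0.864) and 0.56 (limma adjusted p = 0.00985). The call in IR20 at 6 h was lost with the 3'/5' index in the fit (0.32, limma adjusted p = 0.195), and with a pseudocount of 64 the Dagad deshi changes were -1.84 and -1.85. The 2 other probe sets of OsCASP1 were dim, with mean log2 levels of 4.43 and 4.42 in Dagad deshi controls. A fall could hardly show from there, and their Dagad deshi changes at 6 h were 0.002 and -0.007 (limma adjusted p = 0.991 and 0.946). In IR20 both rose at 6 h, by 1.34 and 1.22 (limma adjusted p = 1.61e-07 and 8.78e-09). The part of root and shoot tissue in the response of LOC4339222 was not tested.

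Changes as deep as that of LOC4339222 in Dagad deshi were as a rule shared by IR20. The 30 probe sets that fell at least as far in Dagad deshi at 6 h had a median change of -4.37 in IR20 at 6 h, with a range of -6.23 to -2.26. None of the 30 came near the -0.36 of LOC4339222. For the 63 probe sets at 3 h, the median in IR20 was -2.29 with a range of -4.96 to 1.52, and 2 of them lay above the -0.45 of LOC4339222. These counts follow from a gene chosen for this contrast and carry no test.

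**Figure D2:**
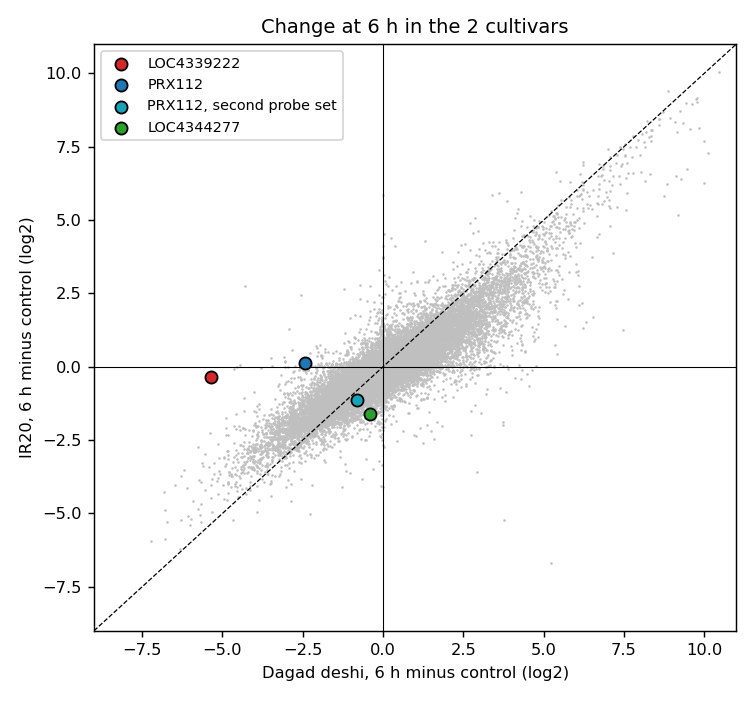
Change from the control after 6 h of drought (log2) in Dagad deshi on the horizontal axis and in IR20 on the vertical axis, for the 40094 probe sets tested (grey), with the peroxidase probe sets in colour and the line of equal change dashed. LOC4339222 lies at -5.34 in Dagad deshi and -0.36 in IR20, apart from the band of the other probe sets, and LOC4344277 lies on the other side of the line.

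Other genes that RefSeq names peroxidase did not share a direction in the difference between the cultivars' responses. None of their probe sets was called higher under drought than in the control in either cultivar. The table gives this name to 3 more genes, PRX112, LOC4344277 and LOC4344281, which lie on chromosome 7. PRX112 has 2 probe sets and LOC4344277 has the third, all tested, and LOC4344281 has none. The counts here are thus of 3 probe sets from only 2 genes. In the comparison with the controls 2 of the 3 probe sets fell in Dagad deshi at 3 h and 3 at 6 h, against 47.3% and 45.7% of all probe sets. In IR20 3 fell at 3 h and 2 at 6 h, against 21.9% and 25.5%. Their median change was -0.82 in Dagad deshi and -1.14 in IR20 at 6 h, where the medians of all probe sets were -0.03 and 0.01. Other members of the family, which the annotation does not name as peroxidases, were not analysed here.

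PRX112, by its probe set of the stronger signal, came closest to LOC4339222 among them. Its intensities in Dagad deshi were 251, 266 and 185 in controls, 20.04, 15.6 and 16.1 at 3 h and 30.8, 33.6 and 25.2 at 6 h. In IR20 they were 574, 375 and 562 in controls, 272, 265 and 276 at 3 h and 559, 561 and 503 at 6 h. The Dagad deshi drought arrays lay far below all others, and the IR20 arrays at 6 h lay within the range of their controls. In Dagad deshi PRX112 fell by 2.90 at 3 h (SE 0.156, limma adjusted p = 5.77e-10) and fell by 2.44 at 6 h (SE 0.156, limma adjusted p = 3.64e-09). In IR20 it fell by 0.83 at 3 h (SE 0.156, limma adjusted p = 5.49e-04), and its value at 6 h was 0.12 (limma adjusted p = 0.545). The response in IR20 was higher than that in Dagad deshi by 2.06 at 3 h (SE 0.221, limma adjusted p = 5.49e-06) and by 2.56 at 6 h (SE 0.221, limma adjusted p = 1.91e-06). With a pseudocount of 64, which shrinks dim signals more, the Dagad deshi change at 3 h was -1.87 and the difference between the responses at 3 h was 1.12, both still called. Unlike LOC4339222, PRX112 was already higher in IR20 in the controls, by 1.05 (SE 0.156, limma adjusted p = 1.72e-04). Its second probe set disagreed. That probe set was dim, between 8.04 and 42.6 in all 18 arrays, and it passed in both cultivars at 6 h, with changes of -0.82 in Dagad deshi and -1.14 for IR20 (limma adjusted p = 2.11e-06 and 8.75e-08). Its difference between the responses at 6 h was -0.32 (SE 0.132, limma adjusted p = 0.0645). It passed without Dagad deshi control replicate 2 (-0.40, limma adjusted p = 0.0200), IR20 3 h replicate 3 (-0.32, limma adjusted p = 0.0368) or Dagad deshi 6 h replicate 3 (-0.39, limma adjusted p = 0.0385), in each case opposite in sign to the other probe set. The pattern of PRX112 thus rests on 1 of its 2 probe sets.

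LOC4344277, on the same chromosome as PRX112, had the reverse order of responses. In Dagad deshi its intensities were 574, 430 and 359 in controls, 505, 517 and 530 at 3 h and 272, 377 and 364 at 6 h. In IR20 they were 1999, 1673 and 1580 in controls, 637, 708 and 738 at 3 h and 584, 565 and 518 at 6 h. IR20 controls were thus the highest group by far, and IR20 drought arrays came down toward the level of Dagad deshi. The control level was higher in IR20 by 1.93 (SE 0.149, limma adjusted p = 4.02e-07). In IR20 the gene fell by 1.31 at 3 h and fell by 1.62 at 6 h (SE 0.149 each, limma adjusted p = 5.36e-06 and 3.24e-07). Dagad deshi had 0.21 at 3 h (limma adjusted p = 0.228), and there the gene fell by 0.40 at 6 h (SE 0.149, limma adjusted p = 0.0279). The call at 6 h was lost without Dagad deshi control replicate 1 (-0.22, limma adjusted p = 0.153) and without Dagad deshi 6 h replicate 1 (-0.26, limma adjusted p = 0.143). With only the groups compared this call was lost too (limma adjusted p = 0.154). The value at 3 h passed without Dagad deshi control replicate 1 (0.38, limma adjusted p = 0.0209). A fit that included the 3'/5' index gave 0.040 at 6 h. The response in IR20 minus that in Dagad deshi was -1.52 at 3 h (limma adjusted p = 6.22e-05) and -1.22 at 6 h (limma adjusted p = 7.11e-04), opposite in sign to LOC4339222.

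**Figure D3:**
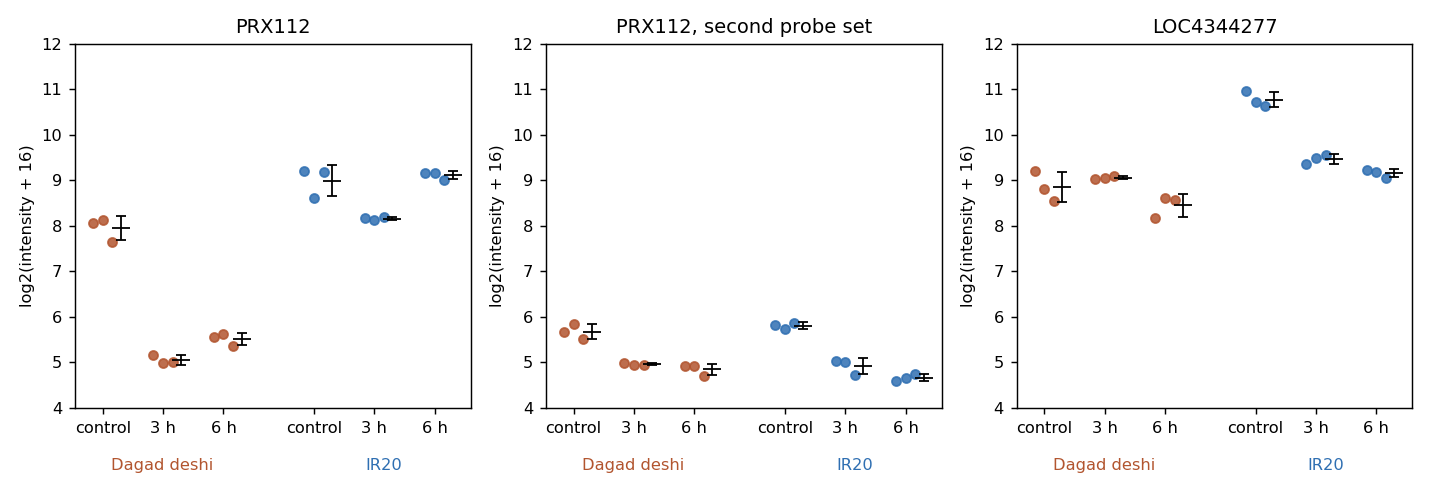
Levels of the other peroxidase probe sets as log2(intensity + 16), with 3 arrays per group as points and the mean ± SD beside them. PRX112 is low in the 6 Dagad deshi drought arrays, its second probe set is below 6 in all 18 arrays, and LOC4344277 is highest in the 3 IR20 controls.

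Genes of NADPH oxidases and superoxide dismutases were read from lists by name. Whether they supply LOC4339222 with hydrogen peroxide was not tested. RBOHB (LOC4326027) was the only gene found by an NADPH oxidase name, and members of that family without such a name were not analysed here. RBOHB was a strong signal in all groups, with mean log2 levels between 10.54 and 11.53. In Dagad deshi it rose by 0.40 at 6 h (SE 0.0976, limma adjusted p = 0.00268), and at 3 h by 0.26 (limma adjusted p = 0.0294). The 3 h call was lost under quantile normalization (limma adjusted p = 0.284), with the 3'/5' index in the fit (limma adjusted p = 0.0762) and with only the groups compared (limma adjusted p = 0.0980). It was also lost without any one of Dagad deshi control replicates 2 and 3 or 3 h replicates 1 and 3 (limma adjusted p of 0.0781 to 0.116). In IR20 it fell by 0.50 at 3 h (SE 0.0976, limma adjusted p = 7.24e-04) and was at 0.06 at 6 h (limma adjusted p = 0.623). The 3 h response in IR20 minus that in Dagad deshi was -0.76 (SE 0.138, limma adjusted p = 5.76e-04), the other direction from LOC4339222, and the value at 6 h was -0.33 (limma adjusted p = 0.0637). The 6 h value passed under median centring (-0.38, limma adjusted p = 0.0450) and without the control of the highest 3'/5' index in each cultivar (-0.44, limma adjusted p = 0.0212). It also passed without Dagad deshi control replicate 1 (-0.43, limma adjusted p = 0.0166) or Dagad deshi 6 h replicate 2 (-0.40, limma adjusted p = 0.0368). Of the 4 superoxide dismutase genes tested, 2 rose and 1 fell in Dagad deshi at 6 h, against 24.7% and 45.7% of all probe sets, and 2 rose in IR20, against 20.4%. The 6 h response was higher in IR20 for 2 of the 4 and lower for 2, against 28.5% and 14.6% of all probe sets. The copper-zinc enzyme gene SODCC.2 (LOC4344210), chosen after its values were seen, rose at 6 h in both cultivars, with 2.84 for Dagad deshi and 1.23 for IR20 (limma adjusted p = 1.92e-10 and 3.08e-06). Its responses differed by -2.43 at 3 h and -1.61 at 6 h (limma adjusted p = 4.22e-07 and 4.40e-05), the other direction from LOC4339222.

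The genes of monolignol synthesis and of laccases, which oxidise monolignols with oxygen in place of hydrogen peroxide, moved in both directions. Of 27 genes tested, 12 rose and 10 fell in Dagad deshi at 6 h, against 24.7% and 45.7% of all probe sets, with a median of 0.14 beside -0.03 over all. In IR20 at 6 h 9 rose and 11 fell, against 20.4% and 25.5%, with a median of 0.05 beside 0.01. The difference between the responses at 6 h was higher in IR20 for 5 genes and lower for 11, against 28.5% and 14.6% of all probe sets. The count of 5 ranged from 3 to 7 when single arrays were left out. At 3 h the response was higher in IR20 for 6 genes and lower for 13, where 48.2% of all probe sets differed in either direction. Laccase genes at either end of this list, chosen after their values were seen, show the spread. LAC4 (LOC4327500) fell at 6 h in both cultivars, with -3.61 for Dagad deshi and -1.84 for IR20 (limma adjusted p = 1.28e-12 and 3.10e-09), and its responses differed in the direction of LOC4339222, by 1.77 (SE 0.157, limma adjusted p = 2.37e-06). LAC19 (LOC4351005) rose by 4.55 in Dagad deshi at 6 h (SE 0.208, limma adjusted p = 8.37e-11) and fell by 0.66 in IR20 (SE 0.208, limma adjusted p = 0.0167). Its responses differed by -5.21 (SE 0.294, limma adjusted p = 3.60e-08), about as far as those of LOC4339222 and in the other direction. The fall of LAC19 in IR20 did not pass without IR20 control replicate 1 (-0.52, limma adjusted p = 0.0827). Nor did it pass without IR20 6 h replicate 1 (-0.60, limma adjusted p = 0.0578) or IR20 6 h replicate 3 (-0.54, limma adjusted p = 0.0780). With only the groups compared this call was lost too (limma adjusted p = 0.0562).

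The genes beside LOC4339222 on chromosome 5 moved in both directions. Of the 10 genes on each side in the order of the RefSeq assembly ASM3414082v1, 13 have a probe set of 1 gene and 12 were tested. At 6 h 5 rose and 5 fell in Dagad deshi, against 70.4% of all probe sets in either direction, and 5 rose and 4 fell in IR20, against 45.9%. The responses differed for 9 of the 12 at 3 h, 5 higher and 4 lower in IR20, against 48.2% of all probe sets. At 6 h they differed for 5, of which 2 were higher and 3 lower, against 43.0%. The assembly of the deposited annotation is not named in the files, so only the gene order is used. LOC4339223, the next gene on one side, fell at 6 h in both cultivars, with -1.42 for Dagad deshi and -0.94 for IR20 (SE 0.146 each, limma adjusted p = 7.26e-07 and 7.37e-05). Its responses differed by 0.68 at 3 h (limma adjusted p = 0.0166) and by 0.48 at 6 h (SE 0.206, limma adjusted p = 0.0722). The call at 3 h was lost with the 3'/5' index in the fit, at a value of 0.58 (limma adjusted p = 0.0821). The value at 6 h passed without Dagad deshi control replicate 3 (0.57, limma adjusted p = 0.0499), Dagad deshi 6 h replicate 2 (0.58, limma adjusted p = 0.0434) or IR20 6 h replicate 3 (0.59, limma adjusted p = 0.0422).

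LOC4339224, the second on that side, rose at 6 h in both cultivars, with 0.98 for Dagad deshi and 0.33 for IR20 (SE 0.0842 each, limma adjusted p = 1.03e-07 and 0.00465), with responses that differed by -0.65 (limma adjusted p = 0.00112). LOC4339225, the third, rose by 1.39 and 1.19 (SE 0.224 each, limma adjusted p = 7.98e-05 and 4.22e-04), and its responses at 6 h differed by -0.20 (limma adjusted p = 0.630). LOC4339226 was at 0.31 in Dagad deshi and -0.11 in IR20 at 6 h (limma adjusted p = 0.0674 and 0.568), and the first of these passed without Dagad deshi 6 h replicate 3 (0.45, limma adjusted p = 0.0171) or IR20 control replicate 2 (0.31, limma adjusted p = 0.0466). On the other side LOC4339221, the nearest gene with a probe set, was near the lower end of the scale in most arrays, at 0.22 and 0.32 (limma adjusted p = 0.203 and 0.107). Single arrays decided its calls, since the first passed without IR20 6 h replicate 3 (0.22, limma adjusted p = 0.0382) and the second without IR20 6 h replicate 1 (0.46, limma adjusted p = 0.0263). LOC4339220 did not pass the filter on low values. Farther out, LOC4339230, the seventh gene on the first side and named after its values were seen, had changes at 6 h of -3.34 for Dagad deshi and -2.41 for IR20 (SE 0.119 each, limma adjusted p = 6.08e-12 and 3.83e-10). Its responses differed in the direction of LOC4339222, by 2.45 at 3 h (limma adjusted p = 8.95e-08) and by 0.92 at 6 h (SE 0.169, limma adjusted p = 0.00107).

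**Figure D4:**
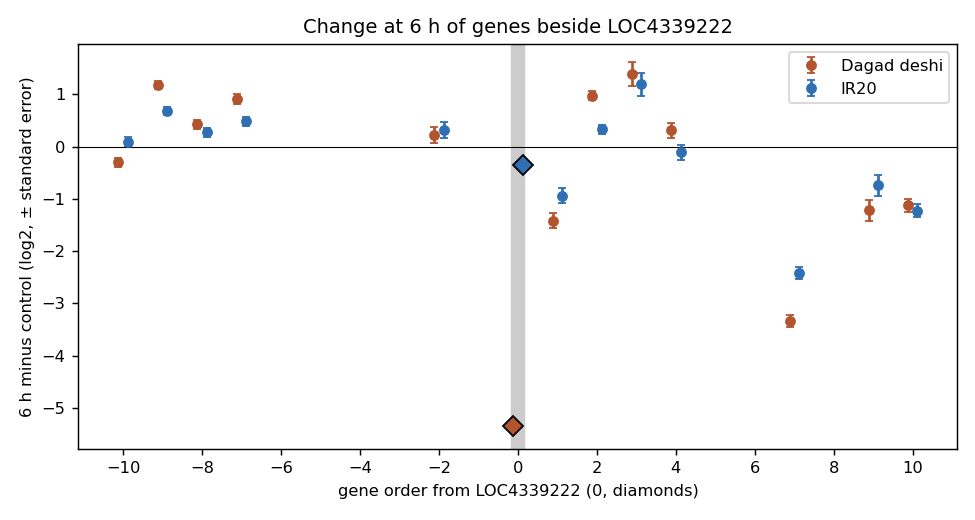
Change from the control after 6 h of drought (log2, ± SE) of the 12 tested genes beside LOC4339222, by gene order, in Dagad deshi and IR20. The diamonds at 0 are LOC4339222, at -5.34 and -0.36, and each neighbour's values in the 2 cultivars lie nearer to each other than these do.

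The genes with the most similar profile were found over all 18 arrays by the root mean square difference of log2 levels, each centred on its mean, among 20696 tested probe sets that carry 1 gene. Likeness chose them, so their values are a description. The closest was GLU15 (LOC4345463), with a difference of 0.53, measured by a probe set that can bind several transcripts. Its log2 level differed from the control at 6 h by -4.34 for Dagad deshi and by -1.07 for IR20. BURP2 (LOC4338119), which encodes a protein with a plant-specific BURP domain, came second with 0.65, and its changes at 6 h were -3.91 and -1.34. Both genes therefore gave up more of their signal in IR20 at 6 h than LOC4339222 did.

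Closer to LOC4339222 in that respect were LOC4349324, LOC4333819 and LOC4349331, which kept their IR20 level at 6 h. LOC4349324 changed by -3.48 in Dagad deshi and 0.28 in IR20 at 6 h, LOC4333819 by -3.04 and -0.02, and LOC4349331 by -3.05 and 0.16. LOC4349331 was a strong signal like LOC4339222, with a mean log2 control level of 13.45 for Dagad deshi and 13.71 for IR20. The other 5 of the 10 closest were LOC4325264, LOC4331271, PIP2-7 (LOC4347729), LOC4351585 and LOC4326722. Of these, PIP2-7 encodes an aquaporin, a water channel of the plasma membrane. Its level at 6 h differed by -5.75 in Dagad deshi and by -2.75 for IR20, from log2 means of 14.42 and 14.43 in the controls. Across the 10 genes the change at 6 h was negative in Dagad deshi for all, and LOC4339222 stood at the deep end with -5.34, where PIP2-7 alone went further. By the Pearson correlation over the 18 arrays in place of the root mean square difference, 3 of the 10 genes were shared. PRX112 ranked 14 by the first measure, and its second probe set ranked 6076.

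**Figure D5:**
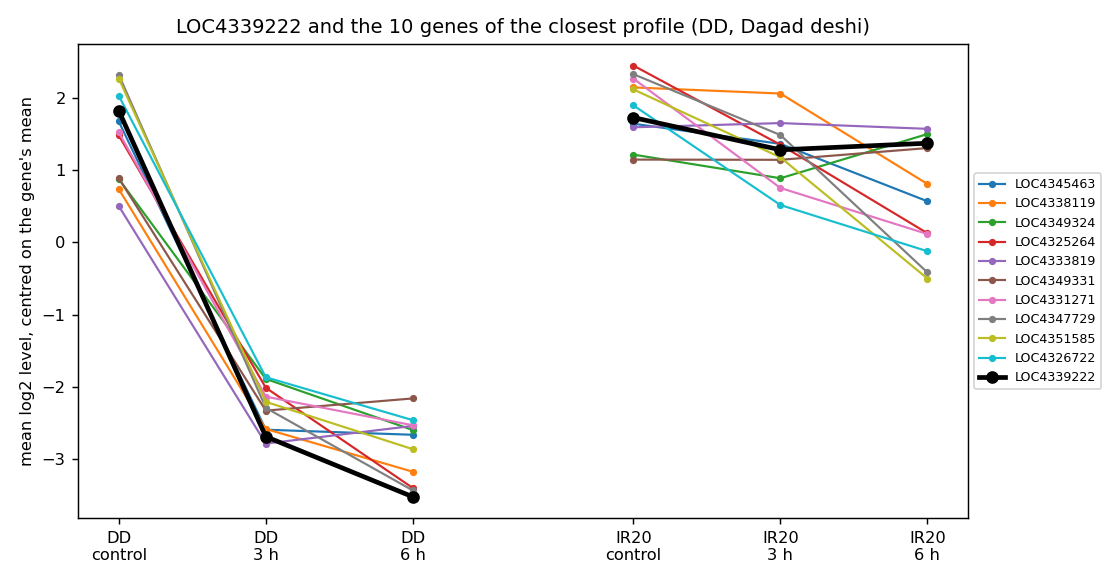
Mean log2 level in each of the 6 groups, centred on each gene's mean over the 18 arrays, for LOC4339222 (black) and the 10 genes with the closest profile. All 11 lines drop from control to 3 h in Dagad deshi, and in IR20 at 6 h LOC4339222, LOC4349324, LOC4333819 and LOC4349331 end above the others.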

How the data were processed

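The authors of the series labelled RNA of whole seedlings by a 3' method and deposited 1 intensity per probe set for each of 18 arrays, on a linear scale. The labels name the software GCOS without a version. How probes were summarized and arrays normalized is not given in the sources used here. The paper worked from CEL files with RMA, which was not repeated here. Median intensities of the arrays ran from 7.13 to 8.20. Precision is limited by the number of arrays.

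Here log2 of the intensity plus 16 was used. Control probe sets were removed (104), apart from 19. The filter kept the 40094 probe sets whose mean log2 exceeded the 30th percentile, LOC4339222 among them. The fit used R 4.3.3 and limma 3.58.1, with lmFit, contrasts.fit and a trended eBayes, with 6 group means and 12 residual degrees of freedom, and p-values were adjusted by Benjamini-Hochberg over all probe sets within each comparison, with a threshold of 0.05. The fit was tested on simulated data. Where a gene had several probe sets, that of the highest mean stood for it in the lists, and all were given for the peroxidases. Intervals are 95% intervals of the fit. A test of LOC4339222 at 6 h against 3 h was planned, but its p is not given because the same values chose the gene.

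The members and lists were chosen with earlier results of these data known. Named genes were the gene itself, the other peroxidases, called NADPH oxidases, neighbours within 5 genes, and the 10 genes most alike. Gene names came from the platform annotation and RefSeq ASM3414082v1, with 22436 probe sets carrying 1 gene, 95 several and 34850 none. No protein table was used, so peroxidases were taken by name and not by sequence similarity. Deviations of same-numbered replicates of different groups had correlations of -0.551 to 0.355 (median 0.0291, 45 pairs). Those of other numbers in different groups ran from -0.582 to 0.7 (median -0.000959, 90 pairs). With medians this near each other, the numbers were not used as pairs.

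Alternatives were quantile normalization, median centring, a pseudocount of 1 or 64, a filter at the 60th percentile or none, no trend, a replicate block, only the groups compared, the 3'/5' index as a term, leaving out each array, and leaving out probe sets marked as binding several transcripts.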

Additional observations from a re-analysis of the deposited data

Results flagged for a closer look

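The following were picked out because the test of the difference between the cultivars' responses passed the threshold (response in IR20 minus response in Dagad deshi, log2, limma adjusted p). Among the peroxidases, PRX112 by its stronger probe set had 2.06 at 3 h (adjusted p = 5.49e-06) and 2.56 at 6 h (adjusted p = 1.91e-06). LOC4344277 had -1.52 at 3 h (adjusted p = 6.22e-05) and -1.22 at 6 h (adjusted p = 7.11e-04). The NADPH oxidase gene RBOHB (LOC4326027) had -0.762 at 3 h (adjusted p = 5.76e-04). Among the neighbours within 5 genes of LOC4339222, LOC4339223 had 0.68 at 3 h (adjusted p = 0.0166). LOC4339224 had -0.464 at 3 h (adjusted p = 0.00685) and -0.647 at 6 h (adjusted p = 0.00112). LOC4339225 had -1.27 at 3 h (adjusted p = 0.00586). Neighbours farther out were not searched for this account, although some passed, among them LOC4339230 with 2.45 at 3 h (adjusted p = 8.95e-08). In these comparisons 48.2% of all probe sets passed at 3 h and 43.0% at 6 h. LOC4339222 itself is not in this account because it was chosen for the same difference, and groups of 3 arrays were not searched for single arrays that stand apart.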

How the results depend on the processing

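The change of LOC4339222 between 3 h and 6 h kept its direction in both cultivars under all 11 alternatives run and without any 1 of the 18 arrays, at -0.89 to -0.79 in Dagad deshi and 0.07 to 0.12 in IR20 when an array was left out. With the replicate block, which rests on numbers that do not pair the samples, the values were -0.83 and 0.09. Without 1 array the drought changes ranged from -4.57 to -4.43 and from -5.40 to -5.26 in Dagad deshi at 3 h and 6 h, from -0.52 to -0.39 and from -0.43 to -0.30 in IR20, and IR20 minus Dagad deshi from -0.15 to -0.01 in controls, from 3.92 to 4.02 at 3 h and from 4.86 to 4.95 at 6 h. The differences between the responses ranged from 3.98 to 4.12 and from 4.91 to 5.05.

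Other settings moved sizes. With a pseudocount of 1 the Dagad deshi changes were -4.62 and -5.55, IR20 minus Dagad deshi 4.08 and 5.10, and the differences between the responses 4.17 and 5.19. With 64 they were -4.21 and -4.84, 3.68 and 4.40, and 3.77 and 4.49. Quantile normalization gave -5.46 in Dagad deshi at 6 h and -0.20 between the controls. Without the control of the highest 3'/5' index in each cultivar, an alternative chosen after seeing the data, the difference between the controls reversed to 0.061 and those between the responses were 3.91 and 4.83. The same alternative turned PRX112 in IR20 at 6 h to -0.070 and OsCASP1 in IR20 at 3 h to 0.033, neither of them called. Quantile normalization turned the second probe set of PRX112 to -0.085 between the controls, and the index term turned LOC4344277 in Dagad deshi at 6 h to 0.040. Without 1 array, PRX112 in IR20 at 6 h ranged from -0.070 to 0.23, OsCASP1 in IR20 at 3 h from -0.14 to 0.033, and the difference between the responses at 6 h from -0.14 to 0.24 for LOC4339221 and from -0.51 to 0.12 for LOC4339225, none of them called. The 6 h changes of the second probe set of PRX112 were -1.39 and -1.99 with a pseudocount of 1 and -0.37 and -0.50 with 64. The fall of LAC19 (LOC4351005) in IR20 was -1.03 with the index term. The cause was not tested.

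Counts of peroxidase probe sets that fell (Dagad deshi at 3 h, IR20 at 6 h) were 1 each under the 60th percentile filter, which tests fewer probe sets. The count of monolignol genes with a higher response in IR20 at 6 h was 3 under median centring, the replicate block and only the groups compared, and 3 to 7 without 1 array. That of superoxide dismutases was 1 under median centring, only the groups compared and without probe sets marked as binding several transcripts, and 1 to 2 without 1 array. Superoxide dismutases that fell in Dagad deshi were 0 with only the groups compared, and those that rose in IR20 were 1 without such probe sets. Neighbours whose responses differed were 3 under the last pair of settings and 4 to 6 without 1 array. The list of 10 most alike genes shared 3 by correlation and 7 to 10 without 1 array. The stricter sequence similarity for the peroxidase family was not run, since no protein table was used. Low signals near the lower end of the scale limit the second probe set of PRX112 and LOC4339221.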
